A study of Mus musculus with 6 samples.

Results

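Sertoli-like cells induced from mouse fibroblasts with small molecules (CiSCs) were compared with primary mouse Sertoli cells (MSCs), gene by gene, in bulk RNA sequencing. The comparison used the 4 libraries whose labels give either cell type, 2 of CiSCs and 2 of MSCs, of 6 libraries in the series. The CiSCs came from embryonic fibroblasts of KM mice, an outbred strain, with an embryo age of 13.5 days post coitum in the labels. The fibroblasts had been passaged, seeded in wells and then treated with small molecules that the labels do not name. The MSCs were isolated from testes of KM mice, at postnatal day 60, then kept on plates. The other 2 libraries were embryonic fibroblasts of the same strain and embryo age (MEFs), which entered the fit and are given where they bear on a result. The labels name no transgene or engineered allele in any group. Age, tissue of origin and chemical treatment all separate CiSCs from MSCs, so their parts in any difference cannot be told apart. Sex may separate the groups too, since testes come from males and no sex of the embryos is given here. The stated aim of the series was to learn how closely CiSCs match Sertoli cells across the genome.

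Sertoli cells line the seminiferous tubules, hold the germ cells and seal the blood-testis barrier with tight junctions. They arise from the somatic cells of the fetal gonad under transcription factors such as Sox9, Gata4, Wt1, Nr5a1 and Dmrt1. They answer to follicle-stimulating hormone and testosterone, secrete inhibin, transferrin and androgen-binding protein, feed germ cells with lactate and release growth factors such as Gdnf and Kitl. Between the tubules lie Leydig cells, which make testosterone from cholesterol, together with macrophages, vessels and interstitial progenitors. Contractile myoid cells surround each tubule.

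The files held 20007 gene IDs, and 18891 of them matched a RefSeq symbol. Totals lay between 19294671 and 20418587 counts per library, so that 1 read was worth between 0.0468 and 0.0543 CPM, the count scaled to the library's total with TMM factors. Of the 15272 genes tested, 477 differed more than 2-fold between the 2 CiSC libraries, 415 between the 2 MSC libraries and 1416 between the 2 MEF libraries, whose spread also entered the shared estimate of error. The labels do not say if the pair of libraries in each group represents distinct cultures or different animals, so p-values measure only the spread between these libraries, which may be technical. Checked against their label, the MSC libraries held the defining Sertoli genes Sox9, Wt1, Gata4, Cldn11 and Dhh at levels given next, but the receptor for follicle-stimulating hormone, Fshr, had only 8 reads over both MSC libraries and 0 in CiSCs and was not tested. The occludin gene Ocln, with 1 read in CiSCs and 17 in MSCs, and the Sertoli genes Cst9 (0 and 17 reads), Rhox5 (16 and 20), Tsx (25 and 9) and Nr0b1 (0 and 12) were also too low to test.

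CiSCs and MSCs differed in a large share of the transcriptome, and the larger differences were mostly genes with more RNA in MSCs. By edgeR's quasi-likelihood test at an adjusted p under 0.05, 6534 of 15272 genes (42.8%) differed, of which 3837 (25.1% of those tested) were higher in MSCs and 2697 (17.7%) higher in CiSCs. At 16-fold or more there were 997 called genes higher in MSCs against 251 higher in CiSCs, and at 64-fold or more 445 against 113. In MSCs, 66 genes with at least 10 CPM had no more than 3 reads over both CiSC libraries, and 16 genes showed the reverse. The 2 groups' libraries did not overlap for 12356 genes (80.9%), and all 6534 called genes were among these. For 6858 genes (44.9%) the 95% interval of the difference lay within 2-fold in either direction, while 2690 genes neither passed the test nor were bounded so closely. The median log2 difference over all tested genes, MSCs minus CiSCs, was 0.03. The number of calls rested on all 4 libraries: without CiSC library 1 it was 4037, without CiSC library 2 it was 4205, without MSC library 1 it was 4017 and without MSC library 2 it was 3910. Genes called higher in CiSCs then numbered 1451, 1533, 1382 and 1343 in the same order. Without either MEF library the calls rose to 9356 and 9369, of which 4237 and 4238 were higher in CiSCs.

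**Figure D1:**
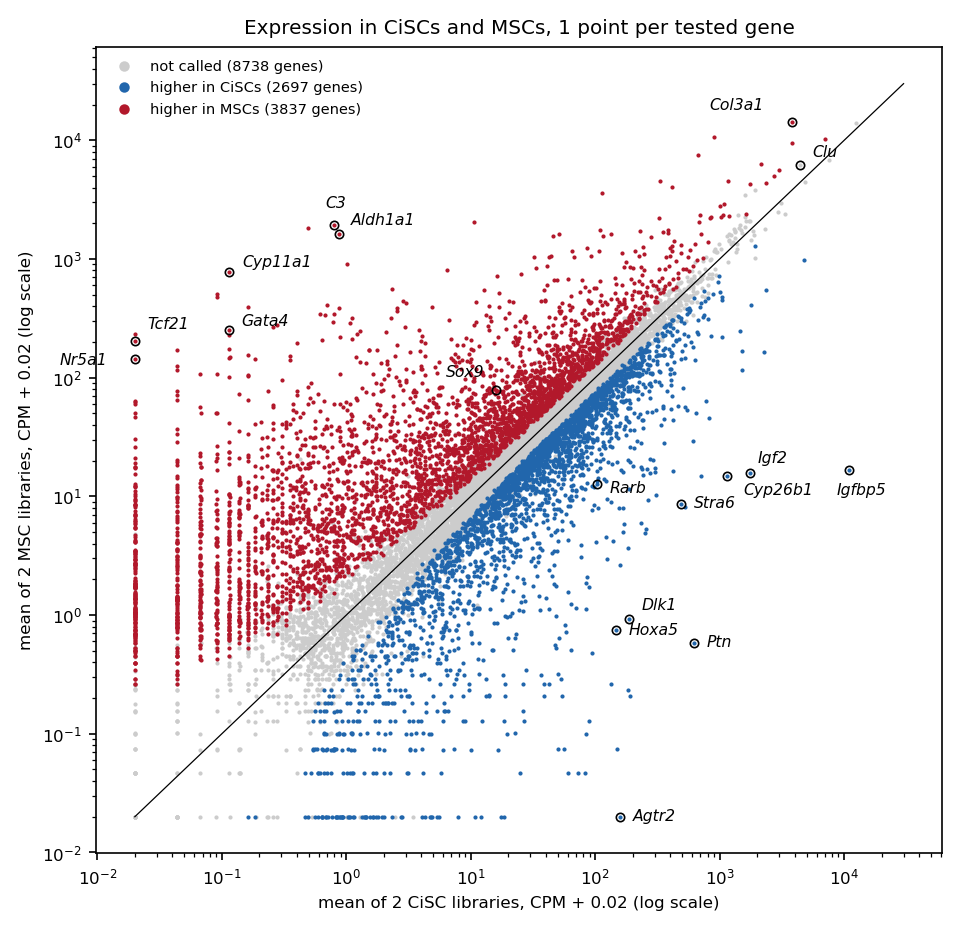
Mean expression of each of the 15272 tested genes in 2 CiSC libraries (horizontal axis) and 2 MSC libraries (vertical axis), both as CPM plus 0.02 on log scales, with the line of equal levels. Red and blue points passed the edgeR test higher in MSCs and in CiSCs, grey points did not, and the columns of red points at the left edge are genes with 0 or a few reads in CiSCs, among them Nr5a1 and Tcf21.

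The transcription factors that direct Sertoli cells differed from one another in how far CiSCs lay from MSCs, and Gata4 and Nr5a1 were almost without reads in CiSCs. Gata4 (gene ID 14463), a zinc finger factor of the gonadal ridge and of Sertoli cells, had 0.0954 and 0.0936 CPM in the CiSC libraries and 239.8 and 265 CPM in the MSC libraries. Those CiSC values stand for 4 reads against 9386, a 2670.5-fold difference (log2 11.29 ± 0.23, SE, 2 libraries a group; edgeR adjusted p = 7.64e-06). Nr5a1 (gene ID 26423), the nuclear receptor of gonadal and adrenal somatic cells, had 0 reads in CiSCs and 137 and 150.04 CPM in MSCs, which is at least 2024-fold higher when the CiSC side is set at 3 reads over the group. Neither gene showed any overlap between the groups, and MEFs had 0.152 and 0.156 CPM of Gata4. The related factor Gata6 ran the other way, at 39.6 and 38.9 CPM in the CiSC libraries and 8.93 and 12.3 CPM in the MSC libraries (3.702-fold higher in CiSCs, log2 -1.89 ± 0.19, edgeR adjusted p = 0.000398).

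Sox9 and Wt1 were read in CiSCs, at a part of the MSC level. Sox9 (gene ID 20682), the factor that starts Sertoli differentiation, had 16.9 and 14.6 CPM in the CiSC libraries and 68.9 and 88.7 CPM in the MSC libraries, which was 4.99-fold higher in MSCs (log2 2.32 ± 0.20, edgeR adjusted p = 0.000218). Its CiSC values lay close to the 12.04 and 15.6 CPM of MEFs. Wt1, a zinc finger factor needed to keep Sertoli identity, had 22.4 and 21.1 CPM in CiSCs and 175 and 225 CPM in MSCs (9.198-fold higher, edgeR adjusted p = 3.09e-05), with 1.32 and 1.403 CPM in MEFs. The Sox9 relative Sox8 had 0.572 and 0.655 CPM in CiSCs and 9.62 and 10.9 CPM in MSCs (16.7-fold higher). Dmrt1, which keeps Sertoli cells from turning towards granulosa cells, had 3 reads in CiSCs and 415 in MSCs, 157-fold (95% counting interval 53.5 to 766) higher. In each of these genes both MSC libraries lay above both CiSC libraries.

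Over the wider list of gonadal transcription factors, 16 of 26 tested members (29 listed) were higher in MSCs and 8 in CiSCs, with a median log2 difference of 2.28 against 0.03 for all tested genes. The bHLH factor Tcf21, known from interstitial cells of the testis, had 0 reads in CiSCs and 224 and 181 CPM in MSCs. Osr1, a factor of intermediate mesoderm, had 11.7 and 10.8 CPM in CiSCs and 60.3 and 62.6 CPM in MSCs (5.48-fold higher). Members higher in CiSCs included the homeobox gene Six4, which acts upstream of Sry in the fetal gonad, with 25.9 and 28.9 CPM in CiSCs and 5.104 and 6.14 CPM in MSCs (4.87-fold). The Polycomb gene Cbx2, needed for male sex determination, had 18.8 and 19.5 CPM in CiSCs and 6.43 and 5.27 CPM in MSCs (3.27-fold higher in CiSCs, edgeR adjusted p = 0.000598). The ETS factor Etv4, a target of FGF signalling, had 106 and 102 CPM in CiSCs and 15.8 and 16.8 CPM in MSCs (6.38-fold higher in CiSCs). Its relative Etv5, a Sertoli factor needed for spermatogonial stem cells, had 109 and 112 CPM in CiSCs and 68.9 and 54.6 CPM in MSCs (1.79-fold higher in CiSCs, edgeR adjusted p = 0.00512), and its adjusted p was 0.0567 without MSC library 2.

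Most of the Sertoli cell markers had more RNA in MSCs, several of them by more than 100-fold, while clusterin, a common marker of mature Sertoli cells, did not pass the test. Of 35 markers listed, 30 were tested, 25 were higher in MSCs and 2, Cyp26b1 and Etv5, were higher in CiSCs, with a median log2 difference of 4.10. A marker with few reads in CiSCs could enter the test only through its level in MSCs or MEFs, so these counts describe the tested genes only. The count higher in CiSCs was 1 without MSC library 2. At 10 CPM or more stood 10 markers in CiSCs and 25 in MSCs, and 6 markers had 0 reads in CiSCs against none in MSCs. Clu (gene ID 12759), a secreted chaperone, had 4734 and 4020.2 CPM in CiSCs, 4852 and 7529.9 CPM in MSCs and 5.66 and 5.87 CPM in MEFs. The difference between CiSCs and MSCs had a log2 of 0.50 ± 0.23 with a 95% interval of -0.06 to 1.06 (edgeR adjusted p = 0.133), which spans an excess in MSCs of just over 2-fold. With Clu included, the summed level of the list stood at 7797 and 6849 CPM in CiSCs, 9191 and 12255 CPM in MSCs and 3199 and 4222 CPM in MEFs. Clu made up most of the sum in CiSCs, followed by Vim, given below, and Cyp26b1, with 1153 and 1116 CPM. Vim made up most of the sum in MEFs. The sums therefore say little about the other markers.

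**Figure D2:**
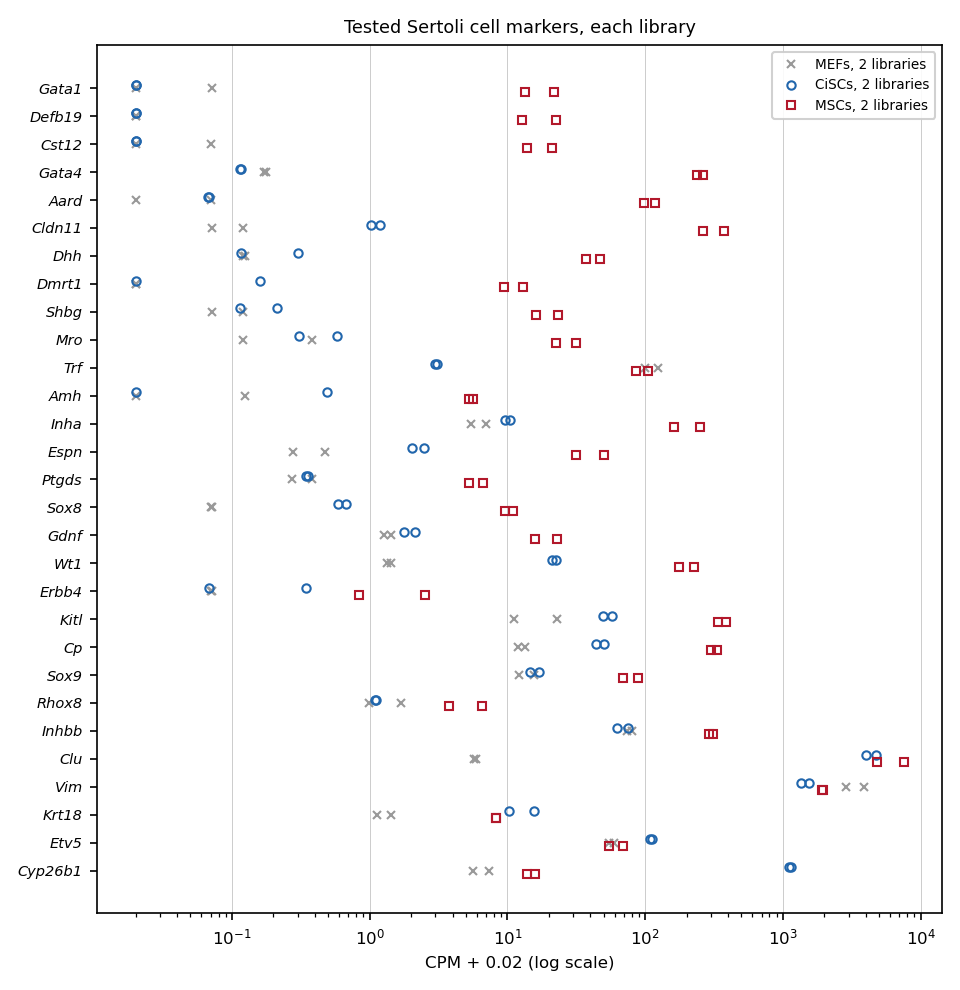
Levels of tested Sertoli cell markers in the 2 libraries each of CiSCs, MSCs and MEFs, as CPM plus 0.02 on a log scale, 1 point a library. MSC points lie right of the CiSC points for most genes, by more than 100-fold for Gata4, Cldn11 and Dhh, while the CiSC and MSC points of Clu and Vim lie near each other and those of Cyp26b1 stand in reverse order.

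Among the hormones and factors that Sertoli cells release, the inhibin subunits, stem cell factor, Gdnf and desert hedgehog were all higher in MSCs. Inha, the inhibin alpha subunit, had 10.4 and 9.59 CPM in CiSCs and 162 and 249.8 CPM in MSCs (20.7-fold higher, edgeR adjusted p = 5.1e-05). Inhbb, the beta B subunit that forms inhibin B with it, had 74.9 and 61.99 CPM in CiSCs and 309 and 289.7 CPM in MSCs (4.37-fold higher). The beta A subunit Inhba differed less, at 117 and 111 CPM in CiSCs and 199 and 182 CPM in MSCs (edgeR adjusted p = 0.0168), and its adjusted p was 0.098 without CiSC library 1, 0.115 without CiSC library 2, 0.118 without MSC library 1 and 0.0761 without MSC library 2. Dhh, the ligand by which Sertoli cells signal to Leydig and myoid cells, had 8 reads in CiSCs against 1569 in MSCs, 224-fold higher (log2 7.76 ± 0.35). Gdnf, which maintains spermatogonial stem cells, had 1.77 and 2.11 CPM in CiSCs and 15.7 and 23.1 CPM in MSCs (10.03-fold higher). Kitl, the ligand of the Kit receptor on spermatogonia, had 49.04 and 57.1 CPM in CiSCs and 384 and 339 CPM in MSCs (6.81-fold higher). Amh, the hormone of immature Sertoli cells that makes the Müllerian ducts regress, was low in both groups, with 10 reads in CiSCs, all of them in library 2, and 202 in MSCs. Its difference passed the edgeR test at an adjusted p of 0.00775, which was 0.0518 without MSC library 1 and 0.0554 without MSC library 2.

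The transport proteins of the Sertoli cell followed the same direction. Trf, transferrin, had 2.96 and 3.04 CPM in CiSCs and 85.3 and 105.3 CPM in MSCs (31.8-fold higher, log2 4.99 ± 0.21), and MEFs stood near MSCs with 99.9 and 123 CPM. Shbg, which gives androgen-binding protein in the testis, had 6 reads in CiSCs and 731 in MSCs (138-fold higher). The copper carrier Cp, ceruloplasmin, had 43.99 and 50.4 CPM in CiSCs and 299.6 and 334 CPM in MSCs (6.72-fold higher). Aard, listed as a Sertoli marker, had 2 reads in CiSCs and 3999 in MSCs. Over the list of secreted products and niche factors, 24 of 29 tested were higher in MSCs and 2, Plat and Cxcl12, in CiSCs, with a median log2 difference of 2.77. The count higher in CiSCs was 1 without either MSC library. Plat, tissue plasminogen activator, had 417 and 387 CPM in CiSCs and 99.8 and 113 CPM in MSCs (3.78-fold higher in CiSCs). The chemokine Cxcl12 had 804 and 799 CPM in CiSCs and 333 and 290.1 CPM in MSCs (edgeR adjusted p = 0.00826), and its adjusted p was 0.0554 without MSC library 1 and 0.079 without MSC library 2.

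Cldn11 and other tight junction genes were low in CiSCs, while the scaffold gene Tjp1 was higher there than in MSCs. Cldn11 (gene ID 18417), the claudin that seals the blood-testis barrier, had 1.002 and 1.17 CPM in the CiSC libraries and 263 and 373 CPM in the MSC libraries (293-fold higher in MSCs, log2 8.19 ± 0.28, edgeR adjusted p = 9.96e-06). The adapter Cgn, cingulin, had 0.429 and 0.795 CPM in CiSCs and 169.97 and 247 CPM in MSCs (341-fold higher), and the polarity gene Pard6b had 0.668 and 0.281 CPM in CiSCs and 18.7 and 25.6 CPM in MSCs (46.6-fold higher). Cldn23 had 2 reads in CiSCs and 479 in MSCs. Cxadr, an adhesion receptor of tight junctions, had 10.5 and 10.9 CPM in CiSCs and 57.3 and 65.6 CPM in MSCs (5.74-fold higher). In the other direction the scaffold Tjp1, ZO-1, had 286 and 287 CPM in CiSCs and 111 and 110.3 CPM in MSCs (2.59-fold higher in CiSCs, edgeR adjusted p = 0.0016) and Cldn15 had 32.1 and 31.2 CPM in CiSCs and 5.37 and 4.35 CPM in MSCs (6.52-fold higher in CiSCs). Of 26 tested tight junction and polarity genes (34 listed), 14 (53.8%) were higher in MSCs and 4 (15.4%) in CiSCs. Over all tested genes the shares were 25.1% and 17.7%, so the CiSC share of this list was near the background. When 1 library was dropped, the count higher in CiSCs was 2 without either CiSC library or either MSC library.

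The junctions between Sertoli cells and germ cells, which are rich in actin, showed both directions. Shares of their list were 40% higher in MSCs and 25% in CiSCs, against 25.1% and 17.7% of all tested genes. Cdh2, N-cadherin, had 94.4 and 97.4 CPM in CiSCs and 244 and 273 CPM in MSCs (2.697-fold higher in MSCs). The placental cadherin Cdh3 had 8.59 and 9.87 CPM in CiSCs and 129 and 145 CPM in MSCs (14.8-fold higher), and the nectin Nectin2, found on Sertoli cells, had 142 and 124 CPM in CiSCs and 430.4 and 488 CPM in MSCs (3.46-fold higher). Espn, espin, which bundles actin in the ectoplasmic specialization, had 2.48 and 2.01 CPM in CiSCs and 31.4 and 50.4 CPM in MSCs (18.2-fold higher). The mesenchymal cadherin Cdh11 stood at 639.8 and 625 CPM in CiSCs and 149 and 133 CPM in MSCs (4.48-fold higher in CiSCs) and Jup, plakoglobin, at 430.2 and 387 CPM in CiSCs and 47.9 and 61.3 CPM in MSCs (7.48-fold higher in CiSCs). Over the 20 genes of this list 8 were higher in MSCs and 5 in CiSCs, and leaving out 1 library, the count higher in CiSCs was 3 without CiSC library 2 or either MSC library. Gja1, the main connexin between Sertoli cells, had 213 and 202 CPM in CiSCs and 125 and 114 CPM in MSCs (edgeR adjusted p = 0.0334), and its adjusted p was 0.144 without CiSC library 1, 0.116 without CiSC library 2, 0.135 without MSC library 1 and 0.188 without MSC library 2.

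Few connexins, keratins and desmosome genes could be tested. Of 8 tested connexins 2 were higher in MSCs and 2 in CiSCs, shares near those of all tested genes, and leaving out 1 library, the count higher in MSCs was 1 without either CiSC library or either MSC library, and the count higher in CiSCs was 1 without either CiSC library or either MSC library. Of 12 tested keratin and desmosome genes 6 were higher in MSCs and 3 in CiSCs, and leaving out 1 library, the count higher in MSCs was 3 without either MSC library, and the count higher in CiSCs was 1 without either CiSC library or MSC library 1. Esrp2, a splicing factor of epithelia, had 1.38 and 0.889 CPM in CiSCs and 12.9 and 13.1 CPM in MSCs (11.4-fold higher in MSCs).

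Vimentin and keratin 18, both used to mark Sertoli cells in culture, did not pass the test. Vim, vimentin, had 1551 and 1357 CPM in CiSCs and 1918 and 1943 CPM in MSCs (log2 0.41 ± 0.19, 95% interval -0.04 to 0.86, edgeR adjusted p = 0.124), and 2897 and 3892 CPM in MEFs. Krt18, a keratin of immature Sertoli cells, had 15.5 and 10.2 CPM in CiSCs and 8.24 and 8.26 CPM in MSCs (log2 -0.64 ± 0.25, 95% interval -1.24 to -0.04). Both passed it once 1 MEF library was left out, Vim at adjusted p of 0.00746 without MEF library 1 and 0.00668 without MEF library 2, and Krt18 at 0.0299 without MEF library 1 and 0.032 without MEF library 2.

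Most listed genes of Leydig cells and of steroid hormone synthesis were low in CiSCs and higher in the MSC libraries. At 10 CPM or more stood 2 of the 14 listed in CiSCs and 10 in MSCs. All 11 tested members of the list of 14 were higher in MSCs, with a median log2 difference of 7.15. Here too a gene with few reads in CiSCs could enter the test only through its level in MSCs or MEFs. The count and the median therefore describe the tested genes only, and 5 members had 0 reads in CiSCs. The summed level of the list was 46.4 and 49.2 CPM in CiSCs, 2490.2 and 2521 CPM in MSCs and 56.5 and 53.6 CPM in MEFs. Star (gene ID 20845), which carries cholesterol into mitochondria, had 3.48 and 2.48 CPM in the CiSC libraries and 423 and 426 CPM in the MSC libraries (142-fold higher, log2 7.15 ± 0.21, edgeR adjusted p = 8.2e-06). Cyp11a1 (gene ID 13070), which makes the first steroid from cholesterol, had 4 reads in CiSCs and 773 and 794 CPM in MSCs (8249-fold higher). Hsd3b1, which acts on its product and has close copies among the Hsd3b genes, had 3 reads in CiSCs and 104 and 109 CPM in MSCs. Insl3 (gene ID 16336), the peptide hormone of Leydig cells that brings the testis down, had 0 reads in CiSCs and 60.3 and 64.6 CPM in MSCs, at least 881-fold higher. Akr1cl, a reductase of Leydig cells, had 3 reads in CiSCs and 495 and 461 CPM in MSCs.

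Not every gene of the Leydig cell was present in the MSC libraries. Cyp17a1, the next enzyme towards androgens, had 1 read over both MSC libraries, Hsd17b3, the testosterone-forming enzyme, had 0, and Lhcgr, the receptor for luteinizing hormone, had 3, and none of the 3 had a read in CiSCs. Fdx1, the electron carrier of mitochondrial P450 enzymes, had 8.54 and 8.65 CPM in CiSCs and 193 and 186 CPM in MSCs (22.1-fold higher), and Scarb1, the receptor that takes up cholesterol esters, had 23.8 and 27.3 CPM in CiSCs and 93.1 and 103 CPM in MSCs (3.84-fold higher). The genes that make cholesterol moved in the same direction by smaller factors: 18 of 25 were higher in MSCs and 0 in CiSCs. Sc5d had 42.5 and 39.9 CPM in CiSCs and 192 and 185 CPM in MSCs (4.59-fold higher). In fits lacking 1 library, the count higher in MSCs was 10 without either CiSC library and 9 without MSC library 1, and the count higher in CiSCs was 1 without either MEF library.

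Most markers of interstitial progenitors, vessels and contractile cells were also higher in MSCs. Of the 10 genes listed for interstitial progenitors, 7 were higher in MSCs and 2 in CiSCs, and their summed level was 816 and 845 CPM in CiSCs, 1533 and 1458 CPM in MSCs and 939 and 713 CPM in MEFs. Ly6a, the stem cell antigen Sca-1, had 6.82 and 6.46 CPM in CiSCs and 289 and 325 CPM in MSCs (46.3-fold higher in MSCs). Nr2f2, COUP-TFII, had 54.6 and 48.5 CPM in CiSCs and 179.7 and 167 CPM in MSCs (3.36-fold higher). Among 15 tested endothelial genes 10 were higher in MSCs and 3 in CiSCs, with a summed level of 127 and 121 CPM in CiSCs, 329 and 344 CPM in MSCs and 221 and 147 CPM in MEFs. Cdh5, VE-cadherin, had 2 reads in CiSCs and 55.9 and 57.9 CPM in MSCs, and Robo4 had 1 read and 16.3 and 20.5 CPM. The 3 higher in CiSCs were Flt1, Egfl7 and Emcn. Flt1 had 10.8 and 12.5 CPM in CiSCs and 2.45 and 2.61 CPM in MSCs. Egfl7 had 11.2 and 11.1 CPM in CiSCs and 4.52 and 4.07 CPM in MSCs. Emcn had 9.45 and 11.5 CPM in CiSCs and 5.32 and 5.22 CPM in MSCs. At 10 CPM or more stood 4 endothelial genes in CiSCs and 4 in MSCs. Myoid and smooth muscle genes were higher in MSCs for 13 of 20 members. The myosin Myh11 had 3.05 and 2.95 CPM in CiSCs and 91.02 and 92.9 CPM in MSCs (30.7-fold higher) and the kinase Mylk had 41.1 and 40.7 CPM in CiSCs and 907 and 824 CPM in MSCs (21.2-fold higher). The 4 members higher in CiSCs included Pdgfrb, with 309 and 332 CPM in CiSCs and 159 and 152 CPM in MSCs (2.07-fold). After leaving out 1 library, the count higher in CiSCs was 2 without CiSC library 2 and 1 without either MSC library.

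Macrophage markers were higher in MSCs than in CiSCs for all 22 tested members of the list of 23, and MEFs carried more of them than either. Their summed level was 53.8 and 75.1 CPM in CiSCs, 2349.6 and 2254 CPM in MSCs and 16416 and 26270.5 CPM in MEFs. Mpeg1, a pore-forming protein of macrophages, had 2.15 and 3.79 CPM in CiSCs and 268 and 265 CPM in MSCs and 1243 and 1393 CPM in MEFs. Ptprc, CD45, had 8 reads in CiSCs and 26.1 and 23.96 CPM in MSCs, and Itgam, CD11b, had 1.67 and 2.34 CPM in CiSCs and 96.7 and 98.3 CPM in MSCs. Germ cell genes were few: 9 of 23 listed were tested, and their summed level was 31.6 and 33.4 CPM in CiSCs, 58.3 and 58.9 CPM in MSCs and 143 and 131 CPM in MEFs. Ddx4, the germ cell helicase Vasa, had 2 reads in CiSCs and 5.64 and 3.91 CPM in MSCs. The GDNF receptor Gfra1, found on spermatogonial stem cells and on neural cells, had 6.202 and 7.39 CPM in CiSCs and 0.425 and 0.217 CPM in MSCs (21.2-fold higher in CiSCs). Of the germ cell list 5 were higher in MSCs and 3 in CiSCs, and leaving out 1 library, the count higher in MSCs was 3 without CiSC library 2 and 2 without MSC library 2 and 8 without either MEF library, and the count higher in CiSCs was 1 without either CiSC library or either MSC library.

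Genes of the rete testis and of the epithelium that joins it to the tubules were higher in MSCs for 8 of 12 members, with a summed level of 241 and 253 CPM in CiSCs, 2049.5 and 2070.1 CPM in MSCs and 687 and 551 CPM in MEFs. The secreted Wnt binder Sfrp2 had 33.97 and 30.9 CPM in CiSCs and 1045 and 1052 CPM in MSCs (32.3-fold higher). Igfbp2, an IGF binding protein, had 2.24 and 2.34 CPM in CiSCs and 551 and 575 CPM in MSCs (246-fold higher). Sfrp2 and Igfbp2 made up most of the sum in MSCs, so that sum says little about the other members. At 10 CPM or more stood 4 members in CiSCs and 5 in MSCs. The keratin Krt19 of the same list had 5.01 and 3.79 CPM in CiSCs and 0.532 and 0.598 CPM in MSCs (7.79-fold higher in CiSCs). The epithelial cadherin Cdh1 had 2 reads in CiSCs and 0.957 and 0.543 CPM in MSCs, below the 6.22 and 4.21 CPM of MEFs. The cathepsin genes Ctsh and Ctsc of this list are also on the lysosome list. With 1 library fewer, the count higher in MSCs was 5 without MSC library 1, and the count higher in CiSCs was 1 without either CiSC library or either MSC library. Bulk libraries cannot tell fewer cells of a type from less RNA per cell. Most listed markers of Leydig cells, vessels, myoid cells and macrophages were thus higher in the MSC libraries together with the Sertoli markers. The rete list was mixed, with most of its genes higher in MSCs but Krt19 higher in CiSCs and Cdh1 low. The part of these markers in the other differences was not tested.

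**Figure D3:**
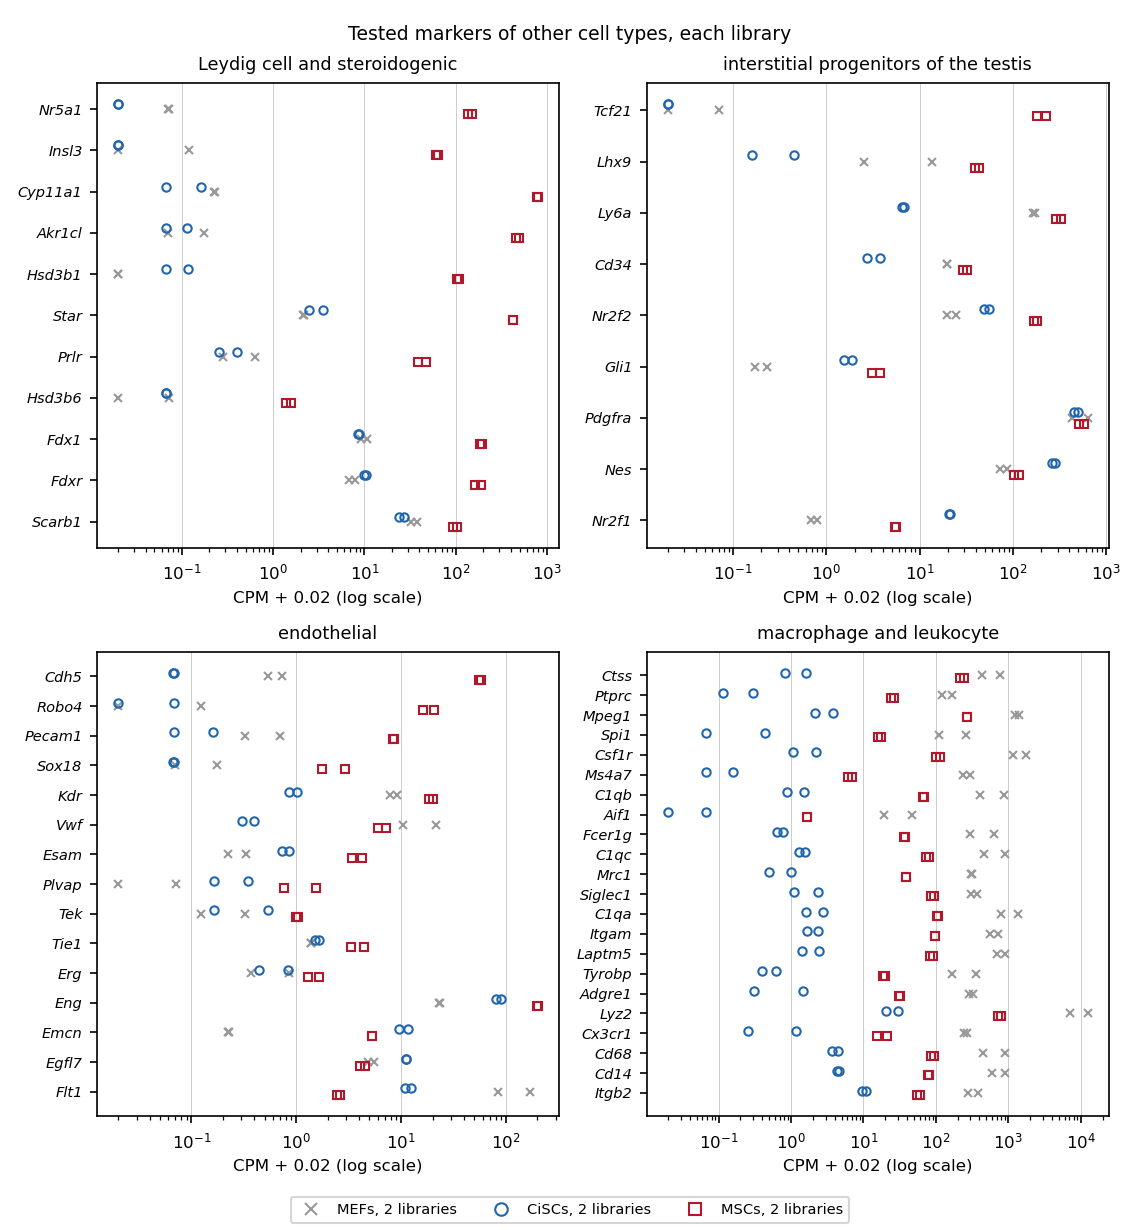
Levels of tested markers of Leydig cells, interstitial progenitors, endothelium and macrophages in each library of CiSCs, MSCs and MEFs, as CPM plus 0.02 on a log scale. The Leydig genes Cyp11a1, Insl3 and Star separate MSCs from both other groups, whereas all 22 macrophage genes are highest in MEFs, intermediate in MSCs and lowest in CiSCs.

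Of 25 fibroblast markers 6 were higher in MSCs, a share near the 25.1% of all tested genes, 10 were higher in CiSCs, a share above their 17.7%, and 9 did not pass the test. Pdgfra, the receptor most used to mark fibroblasts, had 446 and 499 CPM in CiSCs and 580.3 and 513 CPM in MSCs (log2 0.21 ± 0.21, 95% interval -0.30 to 0.71, edgeR adjusted p = 0.468). Col1a1, the main chain of collagen I, had 12686 and 12295 CPM in CiSCs and 12914 and 14962 CPM in MSCs (log2 0.16 ± 0.19, 95% interval -0.29 to 0.60). Both intervals lie within 2-fold. The limb mesenchyme factor Prrx1 had 318 and 348 CPM in CiSCs and 491 and 406 CPM in MSCs (log2 0.43 ± 0.22), not called with all 6 libraries and called at adjusted p of 0.0134 without MEF library 1 and 0.0115 without MEF library 2. Thy1, a surface glycoprotein of fibroblasts, had 145 and 132 CPM in CiSCs and 4.15 and 4.29 CPM in MSCs (32.8-fold higher in CiSCs) and 867 and 687 CPM in MEFs. Fap, fibroblast activation protein, had 235 and 229.99 CPM in CiSCs and 5.69 and 6.14 CPM in MSCs (39.3-fold higher in CiSCs), with 6.02 and 4.11 CPM in MEFs. Lum, the collagen-binding proteoglycan lumican, had 239 and 261 CPM in CiSCs and 5.69 and 4.13 CPM in MSCs (50.9-fold higher in CiSCs). The fibroblast genes higher in MSCs included Cd34, with 2.72 and 3.696 CPM in CiSCs and 31.8 and 29.01 CPM in MSCs, and S100a4, with 2.62 and 4.16 CPM in CiSCs and 79.3 and 73.3 CPM in MSCs, a gene that macrophages also express.

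Retinoic acid genes stood in both directions, with 8 of 25 tested higher in MSCs and 8 in CiSCs, against 25.1% and 17.7% of all tested genes. Among them the Aldh1a enzymes that make retinoic acid were higher in MSCs, and its receptor Rarb, the retinol importer Stra6 and the degrading enzyme Cyp26b1 were higher in CiSCs. Retinoic acid is made from retinol by the Aldh1a enzymes, binds nuclear receptors of the Rar family, and is removed by Cyp26 enzymes. In the testis it brings spermatogonia into meiosis. For 4 of these genes the 250 bases before the annotated start are shown. They hold the only match to the direct repeat 5 element of retinoic acid receptors among the called members with an entry, beside genes without that repeat. The direct repeat 2 element was also searched and matched none of these members. Repeats of other spacing were not searched. The bases were read from RefSeq on GRCm38.p6, 5′ to 3′ on the strand of the gene. Capitals mark matches, on either strand, to the direct repeat 5 element of retinoic acid receptors, the core motif of that element, a GATA site, the TATA box and a SOX site. The core motif was searched as AGGTCA, with AGTTCA as a further form. It was also searched as GGGTCA, and finally in the form GGTTCA. The GATA site was searched as AGATAA and, in its second form, as TGATAA. The box was searched as TATAAA. For the SOX site the letters searched were ACAATG. Rarb was chosen for this after its values were seen.
Rarb (chr14:16575477-16575726, minus strand): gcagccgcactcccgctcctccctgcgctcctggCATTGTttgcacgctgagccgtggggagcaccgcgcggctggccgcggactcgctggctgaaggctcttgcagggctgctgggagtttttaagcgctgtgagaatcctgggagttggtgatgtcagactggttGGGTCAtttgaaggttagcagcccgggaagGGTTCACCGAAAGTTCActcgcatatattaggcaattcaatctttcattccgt
Cyp26b1 (chr6:84593811-84594060, minus strand): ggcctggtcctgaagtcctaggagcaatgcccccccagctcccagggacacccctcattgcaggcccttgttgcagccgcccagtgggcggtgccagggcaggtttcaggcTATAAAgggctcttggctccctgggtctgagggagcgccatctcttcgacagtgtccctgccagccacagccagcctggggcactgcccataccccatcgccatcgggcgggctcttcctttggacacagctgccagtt
Aldh1a1 (chr19:20601718-20601967, plus strand): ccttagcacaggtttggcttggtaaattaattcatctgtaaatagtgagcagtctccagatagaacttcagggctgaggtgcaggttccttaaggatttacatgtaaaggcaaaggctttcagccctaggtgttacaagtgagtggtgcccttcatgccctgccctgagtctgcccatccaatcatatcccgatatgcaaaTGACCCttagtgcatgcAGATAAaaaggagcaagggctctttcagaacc
Aldh1a2 (chr9:71215539-71215788, plus strand): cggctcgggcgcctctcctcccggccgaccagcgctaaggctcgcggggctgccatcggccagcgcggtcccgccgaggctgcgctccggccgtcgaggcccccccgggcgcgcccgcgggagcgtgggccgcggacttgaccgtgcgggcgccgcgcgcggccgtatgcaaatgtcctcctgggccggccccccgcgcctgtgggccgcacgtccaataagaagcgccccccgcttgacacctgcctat

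In the Rarb window there was 1 repeat, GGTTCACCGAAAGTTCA, with its first base at -53 from the start, in which 2 core motifs overlap the repeat itself. It also held a single core motif GGGTCA at -83 and a SOX match CATTGT at -216. Of 32851 windows of this length in the RefSeq table, 29 (0.0883%) matched the direct repeat 5 element and 12694 (38.6%) a core motif. Among the 12 of 16 called retinoic acid genes with an entry, 1 held the repeat and 6 a core motif. These genes had 20 windows, of which 1 held the repeat and 6 a core motif. The Bco1 window, not shown, held 2 core motifs TGACCT close together, at -56 and -49. The first lay within TGACCTT, a match to the Nr5a1 site AAGGTCA on the other strand. The Cyp26b1 window held a TATA box at -139, a motif of 12.4% of windows. The second of the 2 Aldh1a1 windows held a core motif TGACCC at -49 and a GATA match at -32, the latter a motif of 16.6% of windows. Aldh1a2 matched none. Among the steroid genes, 8 of 11 called members had an entry, of which 5 held a GATA match and 0 held the Nr5a1 site AAGGTCA. These 8 members had 11 windows, of which 5 held a GATA match. Over all windows the Nr5a1 site was found in 4.08%. Its variant AAGGCCA, found in 5.24% of windows, matched 0 of these steroid genes and 1 retinoic acid gene, Dhrs3. A match describes the letters of these windows only.

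On the side of synthesis, Aldh1a1 (gene ID 11668) had 0.716 and 0.982 CPM in the CiSC libraries and 1725 and 1545 CPM in the MSC libraries (1926-fold higher in MSCs, log2 10.90 ± 0.24, edgeR adjusted p = 7.64e-06). Aldh1a2, the enzyme that supplies retinoic acid in embryos, had 3 reads in CiSCs and 525 and 487 CPM in MSCs. Aldh1a3 had 0.763 and 1.03 CPM in CiSCs and 6.27 and 7.66 CPM in MSCs, and Aldh1a7, a close copy of Aldh1a1 with which reads could be shared, had 0 reads and 10.3 and 8.04 CPM. Bco1, which splits beta-carotene into retinal, had 1 read in CiSCs and 255 in MSCs. All 4 Aldh1a genes had every MSC library above every CiSC library.

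Genes of uptake, response and removal included some with the reverse order. Stra6, the membrane receptor that takes up retinol, had 507 and 473 CPM in CiSCs and 7.497 and 9.83 CPM in MSCs (56.6-fold higher in CiSCs) against 0.405 and 0.416 CPM in MEFs. Rarb had 104 and 104 CPM in CiSCs and 12.6 and 12.5 CPM in MSCs (8.26-fold higher in CiSCs, log2 -3.05 ± 0.17, edgeR adjusted p = 4.11e-05) and 0.101 and 0.2599 CPM in MEFs. Cyp26b1 had 1153 and 1116 CPM in CiSCs and 15.9 and 13.9 CPM in MSCs (76.3-fold higher in CiSCs, log2 -6.25 ± 0.20) and 7.33 and 5.56 CPM in MEFs. Lrat, which stores retinol as esters, had 14.7 and 14.97 CPM in CiSCs and 2.92 and 3.15 CPM in MSCs (4.88-fold higher in CiSCs), and no read in MEFs. Each of these 4 genes was higher in CiSCs than in MEFs as well. Crabp1, which binds retinoic acid in the cytoplasm, had 4.44 and 3.98 CPM in CiSCs and 0.213 and 0.3803 CPM in MSCs (14.2-fold higher in CiSCs) but was far more abundant in MEFs, with 859 and 1129 CPM.

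HOX genes, which record position along the body axis, were mostly higher in CiSCs, and the 3 called in the other direction were neighbours in the Hoxd cluster. Of 39 listed 32 were tested, 24 were higher in CiSCs and 3 in MSCs, and the median log2 difference was -3.06. Hoxa5 had 151 and 143 CPM in CiSCs and 0.957 and 0.489 CPM in MSCs (203-fold higher in CiSCs, log2 -7.65 ± 0.29, edgeR adjusted p = 1.2e-05) and 3.19 and 4.002 CPM in MEFs. Hoxa3 had 89.8 and 87.8 CPM in CiSCs and 1.97 and 1.47 CPM in MSCs (51.7-fold), Hoxa4 had 77.2 and 62.5 CPM in CiSCs and 1.12 and 1.14 CPM in MSCs (61.9-fold) and Hoxb3 had 129.5 and 119 CPM in CiSCs and 2.92 and 2.99 CPM in MSCs (42.1-fold), all higher in CiSCs. Hoxd9 had 11.6 and 11.5 CPM in CiSCs and 53.6 and 52.97 CPM in MSCs (4.61-fold higher in MSCs), Hoxd10 had 2.34 and 2.53 CPM in CiSCs and 34.1 and 31.2 CPM in MSCs (13.4-fold) and Hoxd11 had 0.191 and 0.0468 CPM in CiSCs and 10.7 and 8.47 CPM in MSCs (80.9-fold). The next gene of that cluster, Hoxd8, named here after its values were seen, had 63.3 and 62.3 CPM in CiSCs and 66.3 and 59.3 CPM in MSCs with a log2 difference of 0.00 ± 0.13 (95% interval -0.31 to 0.31).

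**Figure D4:**
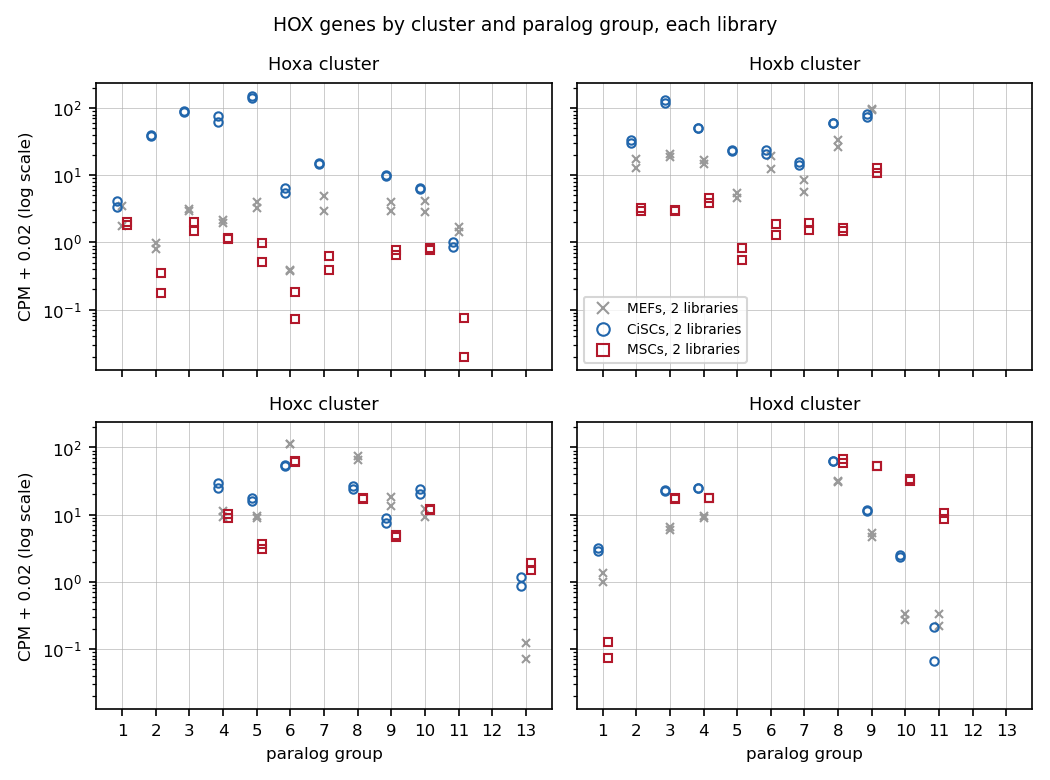
Levels of the tested HOX genes in each library of CiSCs, MSCs and MEFs, as CPM plus 0.02 on a log scale against paralog group, 1 panel for each of the 4 clusters. CiSC points lie above MSC points for every called gene of the Hoxa and Hoxb clusters, and the order is reversed for Hoxd9, Hoxd10 and Hoxd11.

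Other transcription factors of limb and body wall mesenchyme were also mostly higher in CiSCs: 26 of 41 tested were higher in CiSCs and 9 in MSCs, with a median log2 difference of -3.37. Tbx15, a T-box factor of skin and limb mesenchyme, had 42.9 and 42.8 CPM in CiSCs, 0.266 and 0.217 CPM in MSCs and 112 and 92.4 CPM in MEFs (177-fold higher in CiSCs than in MSCs). Shox2, which shapes the proximal limb, had 26.7 and 25.9 CPM in CiSCs and 0.266 and 0.217 CPM in MSCs (109-fold higher in CiSCs) and Irx3 had 62.1 and 54.3 CPM in CiSCs and 0.638 and 0.761 CPM in MSCs (83.2-fold). Six2, a factor of kidney progenitors and of head and limb mesenchyme, had 22.99 and 22.3 CPM in CiSCs and 3 reads in MSCs. In the other direction Osr2, a factor of palate and limb, stood at 3.05 and 2.199 CPM in CiSCs and 88.8 and 99.4 CPM in MSCs (35.8-fold higher in MSCs). When 1 library was dropped, the count higher in MSCs was 5 without CiSC library 1 or MSC library 1 and 4 without MSC library 2.

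Igf2 and other imprinted genes of fetal growth were higher in CiSCs. Of 27 tested imprinted genes 13 were higher in CiSCs and 4 in MSCs, and leaving out 1 library, the count higher in MSCs was 2 without either CiSC library or either MSC library. Igf2 (gene ID 16002), the fetal growth factor, had 1836 and 1646 CPM in the CiSC libraries and 16.7 and 14.5 CPM in the MSC libraries (111-fold higher in CiSCs, log2 -6.80 ± 0.18, edgeR adjusted p = 7.64e-06) and 33.4 and 35.9 CPM in MEFs. Dlk1, a ligand that holds back differentiation, had 181 and 191 CPM in CiSCs and 1.12 and 0.706 CPM in MSCs (204-fold), and Mest had 165 and 178 CPM in CiSCs and 6.06 and 5.704 CPM in MSCs (29.1-fold), both higher in CiSCs. The growth inhibitor Cdkn1c had 35.97 and 31.95 CPM in CiSCs and 2.45 and 1.79 CPM in MSCs (16.03-fold higher in CiSCs). Peg10 ran the other way at 22.4 and 23.2 CPM in CiSCs and 252 and 296 CPM in MSCs (12.02-fold higher in MSCs), as did Dio3, which inactivates thyroid hormone, at 1.53 and 1.54 CPM in CiSCs and 43.7 and 51.1 CPM in MSCs (30.8-fold).

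Genes of the IGF system stood in both directions, with 7 of 20 tested higher in MSCs and 9 in CiSCs. These are 35% and 45%, against 25.1% and 17.7% of all tested genes. Igfbp5 (gene ID 16011) had 11541 and 10351 CPM in the CiSC libraries and 16.5 and 16.7 CPM in the MSC libraries, a 659-fold excess in CiSCs (log2 -9.36 ± 0.21, edgeR adjusted p = 7.64e-06), and 65.3 and 61.02 CPM in MEFs. Igfbp2, given above, and Igfbp4, with 50.04 and 52.3 CPM in CiSCs and 1699.7 and 1559 CPM in MSCs (31.8-fold), were higher in MSCs. Igf1, the postnatal growth factor, had 28.3 and 26.2 CPM in CiSCs and 352 and 307 CPM in MSCs (12.1-fold higher in MSCs), so the 2 ligands stood in opposite order. The fetal RNA-binding proteins that bind Igf2 mRNA were higher in CiSCs: Igf2bp1 had 46.4 and 49.7 CPM in CiSCs and 1.91 and 1.58 CPM in MSCs (27.5-fold) and Igf2bp3 had 44.7 and 50.4 CPM in CiSCs and 7.28 and 6.899 CPM in MSCs (6.701-fold). Hmga2, a chromatin protein of embryonic tissues, had 243 and 238 CPM in CiSCs and 15.3 and 15.2 CPM in MSCs (15.8-fold higher in CiSCs). Of 9 tested genes in the list of such fetal factors, 6 were higher in CiSCs and 0 in MSCs. The count in MSCs was 1 without either MEF library.

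Cell cycle genes were nearly level between the groups, while most listed inhibitors of the cycle and targets of p53 were higher in CiSCs. Of 38 proliferation genes, all tested, 34 had a 95% interval within 2-fold, 2 were higher in MSCs and 5 in CiSCs, with a median log2 difference of -0.05. Ccne1, cyclin E1, which drives entry into S phase, had 33.3 and 32.1 CPM in CiSCs and 13.1 and 14.3 CPM in MSCs (2.39-fold higher in CiSCs). In fits lacking 1 library, the count higher in MSCs was 0 without CiSC library 1 or MSC library 1 and 1 without CiSC library 2 or MSC library 2 and 4 without either MEF library, and the count higher in CiSCs was 1 without either CiSC library or either MSC library. Of 24 CDK inhibitors and p53 targets 16 were higher in CiSCs and 3 in MSCs. Cdkn2a, whose locus encodes the inhibitor p16 and the p53 activator Arf, had 49.9 and 42.5 CPM in CiSCs and 1.97 and 3.31 CPM in MSCs (17.5-fold higher in CiSCs) and 48.7 and 68.1 CPM in MEFs. Pmaip1, the death-promoting protein Noxa, had 48.6 and 45.6 CPM in CiSCs and 6.01 and 3.91 CPM in MSCs (9.49-fold), and Phlda3 had 138 and 141 CPM in CiSCs and 55.98 and 54.1 CPM in MSCs (2.54-fold). Gadd45b, a stress gene, was higher in MSCs at 7.01 and 8.56 CPM in CiSCs and 57.6 and 62.96 CPM in MSCs (7.74-fold).

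The extracellular matrix differed by type. Basement membrane genes were higher in MSCs for 14 of 21 tested, and collagen IV of the specialised kind stood out. Col4a3 had 4 reads in CiSCs and 179.8 and 169 CPM in MSCs (1852-fold), and Col4a4, which pairs with it in the mature basement membrane, had 0.716 and 0.655 CPM in CiSCs and 416 and 399.8 CPM in MSCs (596-fold). The laminin chain Lama1 had 12.6 and 15.02 CPM in CiSCs and 281 and 265 CPM in MSCs (19.8-fold higher in MSCs). The linker Nid1, nidogen, had 4592 and 4867 CPM in CiSCs and 997 and 956 CPM in MSCs (4.85-fold higher in CiSCs), whereas Nid2 had 146 and 153 CPM in CiSCs and 447 and 467 CPM in MSCs (3.06-fold higher in MSCs).

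In the list of fibrillar and associated collagens, more genes were higher in CiSCs, 15 of 28 tested, than in MSCs, with 6. These are 53.6% and 21.4%, against 17.7% and 25.1% of all tested genes. The summed level of the list ran the other way, at 31191 and 33279.9 CPM in CiSCs, 44889 and 47706 CPM in MSCs and 31541 and 27738 CPM in MEFs. Collagen VI chains Col6a1, at 1748 and 1788 CPM in CiSCs and 415 and 401 CPM in MSCs (4.33-fold), and Col6a2, at 1012 and 1069 CPM in CiSCs and 226 and 218 CPM in MSCs (4.69-fold), were higher in CiSCs, and Col6a5 had 26.6 and 29.4 CPM in CiSCs and 0.372 and 0.272 CPM in MSCs (86.9-fold). Col3a1 was higher in MSCs, at 3593 and 4059 CPM in CiSCs and 14091 and 14357 CPM in MSCs (3.72-fold, edgeR adjusted p = 0.000179), as was Col15a1, a collagen next to basement membranes, at 37.1 and 55.9 CPM in CiSCs and 634 and 685 CPM in MSCs (14.2-fold). After leaving out 1 library, the count higher in MSCs was 10 without either MEF library. Among 37 proteoglycans and matrix glycoproteins 12 (32.4%) were higher in MSCs and 16 (43.2%) in CiSCs. Acan (gene ID 11595), aggrecan, known from cartilage, had 0 reads in CiSCs and 216 and 251 CPM in MSCs, at least 3293-fold higher, and Prelp had 2.099 and 2.95 CPM in CiSCs and 376 and 404 CPM in MSCs (155-fold). Fbln1, fibulin 1, had 685 and 603 CPM in CiSCs and 47.2 and 54.3 CPM in MSCs (12.7-fold higher in CiSCs), and the wound matrix protein Postn, periostin, had 1674 and 1320.03 CPM in CiSCs and 109.9 and 121 CPM in MSCs (12.96-fold).

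Among hedgehog genes the ligand Dhh and the receptor Ptch1 were higher in MSCs, and Gli2, Gli3 and Cdon were higher in CiSCs. Shares of the tested list were 31.25% higher in MSCs and 43.75% in CiSCs, against 25.1% and 17.7% of all tested genes. Beside Dhh, the receptor and target Ptch1 had 8.83 and 11.1 CPM in CiSCs and 47.7 and 34.4 CPM in MSCs (4.11-fold higher in MSCs). The transcription factors Gli2, at 71.7 and 71.2 CPM in CiSCs and 25.04 and 20.6 CPM in MSCs (3.13-fold), and Gli3, at 57.9 and 69.005 CPM in CiSCs and 15.5 and 12.7 CPM in MSCs (4.49-fold), and the co-receptor Cdon, at 307 and 363 CPM in CiSCs and 44.7 and 35.8 CPM in MSCs (8.33-fold), were higher in CiSCs. Of 16 tested 5 were higher in MSCs and 7 in CiSCs, and leaving out 1 library, the count higher in CiSCs was 4 without CiSC library 2 or MSC library 1 and 3 without MSC library 2.

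Wnt ligands Wnt4, which the ovary uses against the testis programme, and Wnt6 were higher in MSCs. Wnt4 had 0.382 and 0.374 CPM in CiSCs and 69.97 and 73.99 CPM in MSCs (190.4-fold) and Wnt6 had 1.24 and 0.842 CPM in CiSCs and 55.7 and 63.5 CPM in MSCs (57.2-fold), and the pathway target Axin2 had 2.05 and 2.43 CPM in CiSCs and 29.8 and 32.9 CPM in MSCs (13.99-fold). The receptor Fzd7 was higher in CiSCs, at 238 and 245 CPM in CiSCs and 36.1 and 39.4 CPM in MSCs (6.38-fold). Over all tested genes 25.1% were higher in MSCs and 17.7% in CiSCs, against 32.6% and 37.2% of the Wnt list. Over the Wnt list 14 of 43 tested were higher in MSCs and 16 in CiSCs, and leaving out 1 library, the count higher in MSCs was 9 without either CiSC library or MSC library 2.

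In the TGF-beta and BMP families, Amhr2, the receptor for Amh, had 3 reads in CiSCs and 42.1 and 58.7 CPM in MSCs. Gdf10 was higher in CiSCs, at 159 and 140.1 CPM against 2 reads in MSCs. The inhibitory Smad6, a BMP target, had 6.44 and 6.64 CPM in CiSCs and 63.7 and 56.9 CPM in MSCs (9.22-fold higher in MSCs). Tgfbi, named for its induction by TGF-beta, had 592 and 625 CPM in CiSCs and 29.9 and 28.03 CPM in MSCs (20.99-fold higher in CiSCs). Over all tested genes 25.1% were higher in MSCs and 17.7% in CiSCs, against 46.7% and 10% of the BMP list. For the TGF-beta list the shares were 42.9% and 17.9%, the latter near that of all tested genes. The BMP list had 14 of 30 tested higher in MSCs and 3 in CiSCs, and leaving out 1 library, the count higher in MSCs was 8 without CiSC library 2 and 9 without either MSC library, and the count higher in CiSCs was 1 without either MSC library and 6 without either MEF library. The TGF-beta list had 12 of 28 higher in MSCs and 5 in CiSCs, and leaving out 1 library, the count higher in CiSCs was 8 without either MEF library.

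Notch and growth factor genes stood in both directions. Shares of the tested Notch list were 46.7% higher in MSCs and 26.7% in CiSCs, against 25.1% and 17.7% of all tested genes. In the Notch list 7 of 15 tested were higher in MSCs and 4 in CiSCs, and leaving out 1 library, the count higher in CiSCs was 2 without CiSC library 2 or either MSC library. The Notch target Heyl had 0.0954 and 0.374 CPM in CiSCs and 10.5 and 8.09 CPM in MSCs (39.5-fold higher in MSCs), and the receptor Notch1 had 57.9 and 68.6 CPM in CiSCs and 21.2 and 24.5 CPM in MSCs (2.77-fold higher in CiSCs). Of 50 tested genes of FGF and other receptor tyrosine kinase signalling 15 were higher in MSCs and 15 in CiSCs, the first near the share of 25.1% among all tested genes and the second above their 17.7%. Erbb3, a receptor of neuregulins, had 0.286 and 0.1403 CPM in CiSCs and 25.4 and 27.1 CPM in MSCs (123-fold higher in MSCs), and Pdgfb had 1.19 and 1.78 CPM in CiSCs and 34.2 and 47.6 CPM in MSCs (27.6-fold). The neurotrophin Ntf3 had 2.72 and 2.76 CPM in CiSCs and 0 reads in MSCs (at least 33.99-fold higher), and the EGF receptor ligand Areg had 12.2 and 7.72 CPM and 2 reads. For immediate early and cAMP response genes the shares were 53.6% higher in MSCs and 14.3% in CiSCs, the latter near the background. Immediate early and cAMP response genes were higher in MSCs for 15 of 28 and in CiSCs for 4, and leaving out 1 library, the count higher in CiSCs was 2 without MSC library 2. Fos had 27.8 and 30.5 CPM in CiSCs and 203 and 147 CPM in MSCs (6.01-fold higher in MSCs), while Egr1 had 792 and 709 CPM in CiSCs and 360.2 and 311 CPM in MSCs (2.24-fold higher in CiSCs; edgeR adjusted p = 0.00375, and 0.0507 without MSC library 2).

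The sex steroid receptors Esr1 and Pgr were higher in MSCs. Esr1, the estrogen receptor, had 0.859 and 1.17 CPM in CiSCs and 30.6 and 24.99 CPM in MSCs (27.4-fold) and Pgr, the progesterone receptor, had 0.572 and 0.374 CPM in CiSCs and 19.1 and 18.1 CPM in MSCs (39.3-fold). Pparg, the receptor that drives fat cell formation, ran the other way at 11.2 and 9.64 CPM in CiSCs and 0.957 and 1.41 CPM in MSCs (8.799-fold higher in CiSCs). Of 27 nuclear receptors tested (32 listed), 14 (51.9%) were higher in MSCs and 9 (33.3%) in CiSCs, against 25.1% and 17.7% of all tested genes. With 1 library fewer, the count higher in CiSCs was 5 without either CiSC library or either MSC library.

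Most listed genes of glycolysis, by which Sertoli cells make lactate for germ cells, had more RNA in MSCs, from glucose carrier to lactate exporter. Glucose use and lactate release were not measured. The summed level of the list was 4256 and 4016 CPM in CiSCs, 14519 and 14476 CPM in MSCs and 8472 and 9940 CPM in MEFs. Of 24 genes, all tested, 22 were higher in MSCs, and Pfkm alone was higher in CiSCs, with a median log2 difference of 2.04. The glucose carrier Slc2a1 had 53.3 and 49.03 CPM in the CiSC libraries and 379 and 415 CPM in the MSC libraries (7.75-fold higher, edgeR adjusted p = 2.08e-05). The enzymes Pfkl, at 61.5 and 62.2 CPM in CiSCs and 420.2 and 407 CPM in MSCs (6.69-fold), and Eno1, at 327 and 324 CPM in CiSCs and 2232 and 2211 CPM in MSCs (6.82-fold), followed, and the lactate exporter Slc16a3 had 13.8 and 13.99 CPM in CiSCs and 378 and 432 CPM in MSCs (29.1-fold). MEFs stood between the groups for Slc16a3, with 143 and 171 CPM. The call of Pfkm (edgeR adjusted p = 0.00817) was lost when any library of CiSCs or MSCs was left out, with adjusted p of 0.0618 without CiSC library 1, 0.0758 without CiSC library 2, 0.0672 without MSC library 1 and 0.0922 without MSC library 2, and the count higher in CiSCs was 0 without either CiSC library or either MSC library. Among respiratory chain subunits 40 of 42 had a 95% interval within 2-fold, and the median log2 difference was 0.03.

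Genes of lipid uptake, detoxification and transport were higher in MSCs in greater number than in CiSCs. For the fatty acid list the shares were 43.3% and 16.7%, against 25.1% and 17.7% of all tested genes, so the CiSC share was near the background. Lpl, lipoprotein lipase, had 12.3 and 13.1 CPM in CiSCs and 506 and 599 CPM in MSCs (43.6-fold) and the scavenger receptor Cd36 had 0.477 and 0.281 CPM in CiSCs and 82.8 and 71.1 CPM in MSCs (203-fold). Abca1, which exports cholesterol, had 58.6 and 71.7 CPM in CiSCs and 1239.7 and 1099.9 CPM in MSCs (17.95-fold). The glutathione transferase Gsta3, which also serves steroid synthesis, had 0.429 and 0.374 CPM in CiSCs and 45.6 and 47.5 CPM in MSCs (116-fold), and Mgst1 had 15.4 and 13.5 CPM in CiSCs and 298 and 305 CPM in MSCs (20.9-fold). Gstm2 had 36.9 and 30.03 CPM in CiSCs and 774 and 903 CPM in MSCs and Gstm6 had 0.143 and 0.1403 CPM in CiSCs and 86.8 and 119.8 CPM in MSCs, but reads of the Gstm genes can be split among near-identical copies. Of 33 tested detoxification genes 20 (60.6%) were higher in MSCs and 4 (12.1%) in CiSCs. Among 24 tested transporters that form the drug barrier and feed the tubule, 18 were higher in MSCs. The single one higher in CiSCs was the efflux pump Abcg2, at 80.5 and 89.7 CPM in CiSCs and 30.3 and 28.2 CPM in MSCs (2.91-fold), with an adjusted p of 0.00445 by edgeR and of 0.05 without MSC library 2, and the count higher in CiSCs was 0 without MSC library 2 and 2 without either MEF library. For the fatty acid list 13 of 30 tested were higher in MSCs and 5 in CiSCs, and leaving out 1 library, the count higher in MSCs was 7 without CiSC library 1 and 8 without either MSC library, and the count higher in CiSCs was 3 without either CiSC library or MSC library 1 and 2 without MSC library 2.

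Most listed immune genes were higher in MSCs than in CiSCs. So were the macrophage markers, at a summed 53.8 and 75.1 CPM in CiSCs, 2349.6 and 2254 CPM in MSCs and 16416 and 26270.5 CPM in MEFs. The part of macrophage RNA in these differences was not tested. Interferon-stimulated genes were higher in MSCs for 27 of 32, all tested, with a median log2 difference of 2.41. Their summed level was 715 and 765 CPM in CiSCs, 3907 and 3592 CPM in MSCs and 880 and 1260 CPM in MEFs. MEFs thus lay below MSCs here, unlike for the macrophage markers. The antiviral synthetase Oas2 had 2.58 and 3.88 CPM in CiSCs and 153 and 173 CPM in MSCs (50.5-fold) and Gbp2 had 4.77 and 5.75 CPM in CiSCs and 61.4 and 57.6 CPM in MSCs (11.3-fold). The count higher in CiSCs, 0 with all libraries, was 1 without either MEF library. For the presentation of antigen on MHC class I, 18 of 22 tested were higher in MSCs, among them the loading protein Tapbp, at 22.2 and 25.1 CPM in CiSCs and 179 and 206 CPM in MSCs (8.13-fold). The summed level of this list was 3888 and 3476 CPM in CiSCs, 5319 and 5754 CPM in MSCs and 5331 and 6710 CPM in MEFs. H2-K1 had 49.04 and 53.7 CPM in CiSCs and 329 and 396 CPM in MSCs, though reads of the H2 genes can be shared among copies. When 1 library was dropped, the count higher in MSCs was 11 without MSC library 2, and the count higher in CiSCs was 0 without CiSC library 2 or MSC library 2.

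Complement genes were higher in MSCs for 20 of 24 tested, of which the 3 C1q genes are also on the macrophage list. C3 (gene ID 12266), the central component, had 0.572 and 0.982 CPM in the CiSC libraries and 1973 and 1904 CPM in the MSC libraries (2493-fold higher, log2 11.27 ± 0.45, edgeR adjusted p = 1.33e-05), with 206 and 353 CPM in MEFs. The summed level of the complement list was 1067 and 1035 CPM in CiSCs, 5587 and 5861 CPM in MSCs and 3084 and 5143 CPM in MEFs. C4b had 6 reads in CiSCs, 382 and 412 CPM in MSCs and no read in MEFs. The inhibitor Serping1 had 49.5 and 41.9 CPM in CiSCs and 1459.6 and 1653 CPM in MSCs (34.1-fold) and 18.5 and 23.1 CPM in MEFs. C5ar1, a receptor for a complement fragment, had 0.286 and 0.608 CPM in CiSCs and 30.6 and 30.2 CPM in MSCs, and 115 and 138 CPM in MEFs. MEFs thus lay between the groups for C3, below both for C4b and Serping1 and above both for C5ar1, and the part of macrophage RNA in these differences was not tested. The count higher in CiSCs, 2, was 1 without either MSC library. The chemokine Cxcl14 had 0.477 and 0.468 CPM in CiSCs and 1767 and 1909 CPM in MSCs (3890.2-fold higher in MSCs). The alarmin Il33 had 107 and 95.95 CPM in CiSCs and 2.87 and 5.32 CPM in MSCs (24.8-fold higher in CiSCs). Shares of the tested chemokine and cytokine list were 52.9% higher in MSCs and 14.7% in CiSCs, against 25.1% and 17.7% of all tested genes. The CiSC share was near the background. Of 34 tested chemokines and cytokines 18 were higher in MSCs and 5 in CiSCs, and leaving out 1 library, the count higher in CiSCs was 3 without MSC library 1 and 2 without MSC library 2. Lysosomal genes were higher in MSCs for 22 of 45, such as cathepsin H, Ctsh, at 31.7 and 26.7 CPM in CiSCs and 219.5 and 232 CPM in MSCs (7.72-fold), and in CiSCs for Scarb2, at 363 and 387 CPM in CiSCs and 125 and 136 CPM in MSCs (2.87-fold). The count higher in CiSCs was 3 without either MEF library.

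Sertoli cells take up dying germ cells, and genes of this clearance were higher in MSCs for 11 of 22 tested and in CiSCs for 2. These are 50% and 9.1%, against 25.1% and 17.7% of all tested genes. Elmo1, which acts in engulfment, had 3.96 and 3.98 CPM in CiSCs and 27.1 and 25.7 CPM in MSCs (6.65-fold higher in MSCs), and the integrin Itgb3 had 26.1 and 29.1 CPM in CiSCs and 7.603 and 7.93 CPM in MSCs (3.56-fold higher in CiSCs). In fits lacking 1 library, the count higher in CiSCs was 1 without either CiSC library or either MSC library and 4 without MEF library 1 and 5 without MEF library 2. MHC class II genes were higher in MSCs for 6 of 8 tested, and the invariant chain Cd74 had 3 reads in CiSCs and 8.29 and 6.899 CPM in MSCs.

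Dnmt3l, a partner of the DNA methyltransferases in germ cells, had 0 reads in CiSCs and 9.78 and 9.29 CPM in MSCs (at least 135-fold higher), and Tet1, which oxidises methylcytosine, had 6.68 and 9.03 CPM in CiSCs and 1.54 and 1.09 CPM in MSCs (5.98-fold higher in CiSCs; edgeR adjusted p = 0.00511, and 0.0561 without MSC library 2). Of 28 chromatin genes 5 were higher in MSCs and 8 in CiSCs, and leaving out 1 library, the count higher in MSCs was 3 without either CiSC library or either MSC library, and the count higher in CiSCs was 4 without either CiSC library or MSC library 1 and 3 without MSC library 2 and 13 without either MEF library. With all libraries the chromatin shares were 17.9% higher in MSCs and 28.6% in CiSCs, against 25.1% and 17.7% of all tested genes. Of 7 tested pluripotency genes 4 were higher in MSCs and 1 in CiSCs, among them Klf4, with 19.6 and 21.2 CPM in CiSCs and 58.6 and 49.5 CPM in MSCs (2.65-fold higher in MSCs). After leaving out 1 library, the count higher in CiSCs was 0 without CiSC library 2 or either MSC library and 2 without either MEF library. Y-linked Ddx3y had 35.7 and 42.99 CPM in CiSCs and 78.6 and 61.5 CPM in MSCs (edgeR adjusted p = 0.0092, and 0.0916 without CiSC library 1 and 0.0827 without MSC library 1). In all, 3 of 4 tested Y-linked genes were higher in MSCs, and leaving out 1 library, the count higher in MSCs was 0 without CiSC library 1 or MSC library 1. The summed level of the Y-linked list was 110 and 122 CPM in CiSCs, 190 and 170 CPM in MSCs and 45.8 and 40.0 CPM in MEFs. The part of embryo sex in these levels was not tested. For ribosomal proteins 57 of 71 had a 95% interval within 2-fold and 3 were higher in CiSCs, though their reads can be shared with pseudogene copies. With 1 library fewer, the count higher in MSCs was 1 without CiSC library 1 or either MEF library, and the count higher in CiSCs was 1 without CiSC library 1 or MSC library 2 and 18 without either MEF library.

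Markers of other mesodermal and neural lineages stood in both directions. Of 22 tested skeletal and fat genes 13 (59.1%) were higher in MSCs and 5 (22.7%) in CiSCs. Over all tested genes the shares were 25.1% and 17.7%, so the CiSC share of this list was near the background. Alpl, the alkaline phosphatase of bone, had 1.53 and 2.25 CPM in CiSCs and 126 and 139 CPM in MSCs (70.3-fold higher in MSCs), and the tendon gene Tnmd had 13.1 and 9.73 CPM in CiSCs and 0.319 and 0.489 CPM in MSCs (28.2-fold higher in CiSCs). Of only 10 tested muscle and neural genes 4 (40%) were higher in MSCs and 4 (40%) in CiSCs. Tubb3, a beta tubulin of neurons, had 2.86 and 3.18 CPM in CiSCs and 98.9 and 139 CPM in MSCs (39.4-fold higher in MSCs), and the intermediate filament gene Nes had 282 and 265 CPM in CiSCs and 102 and 117 CPM in MSCs (2.49-fold higher in CiSCs).

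Some genes with the largest excess in MSCs stood on no list. These were Hsd11b1, which regenerates active glucocorticoid, with 0 reads in CiSCs and 61.99 and 66.3 CPM in MSCs (at least 905-fold), and Mrap, an accessory protein of the corticotropin receptor, with 1 read and 159.6 and 180.1 CPM. The zinc carrier Slc30a2 had 0 reads in CiSCs and 50.1 and 70.9 CPM in MSCs (at least 854-fold), Ly6k had 0 and 48.01 and 52.7 CPM, and the kinase gene Map3k21 had 0 and 40.2 and 52.4 CPM. Neither group overlapped the other in any of them.

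The genes with the largest excess in CiSCs came mostly from outside the lists. Agtr2, the angiotensin receptor of fetal mesenchyme, had 161 and 156 CPM in CiSCs, 0 reads in MSCs and 75.5 and 40.6 CPM in MEFs (at least 1965-fold higher). Ptn, the growth factor pleiotrophin, had 552 and 701 CPM in CiSCs and 0.479 and 0.652 CPM in MSCs (1108-fold) and 555 and 529 CPM in MEFs, so the MEF values lay near those of CiSCs. The bHLH factor Sim2 had 72.5 and 72.6 CPM in CiSCs and 1 read in MSCs, and the receptor Gpr83 had 57.9 and 62.4 CPM and 1 read. Ebf2, a factor of brown fat and mesenchymal precursors, had 80.2 and 87.3 CPM in CiSCs and 3 reads in MSCs. The protease genes Mcpt8 and Gzme, known from basophils and cytotoxic lymphocytes, had 96.1 and 68.4 CPM and 61.7 and 51.4 CPM in CiSCs, against 1 and 2 reads in MSCs. The neuronal surface gene Slitrk1 had 17.2 and 19.9 CPM, Izumo1r, the egg receptor Juno, had 13.9 and 21.2 CPM, and Sult1e1, which inactivates estrogen, had 10.6 and 10.8 CPM in CiSCs. None of these 3 had a read in MSCs or MEFs.

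**Figure D5:**
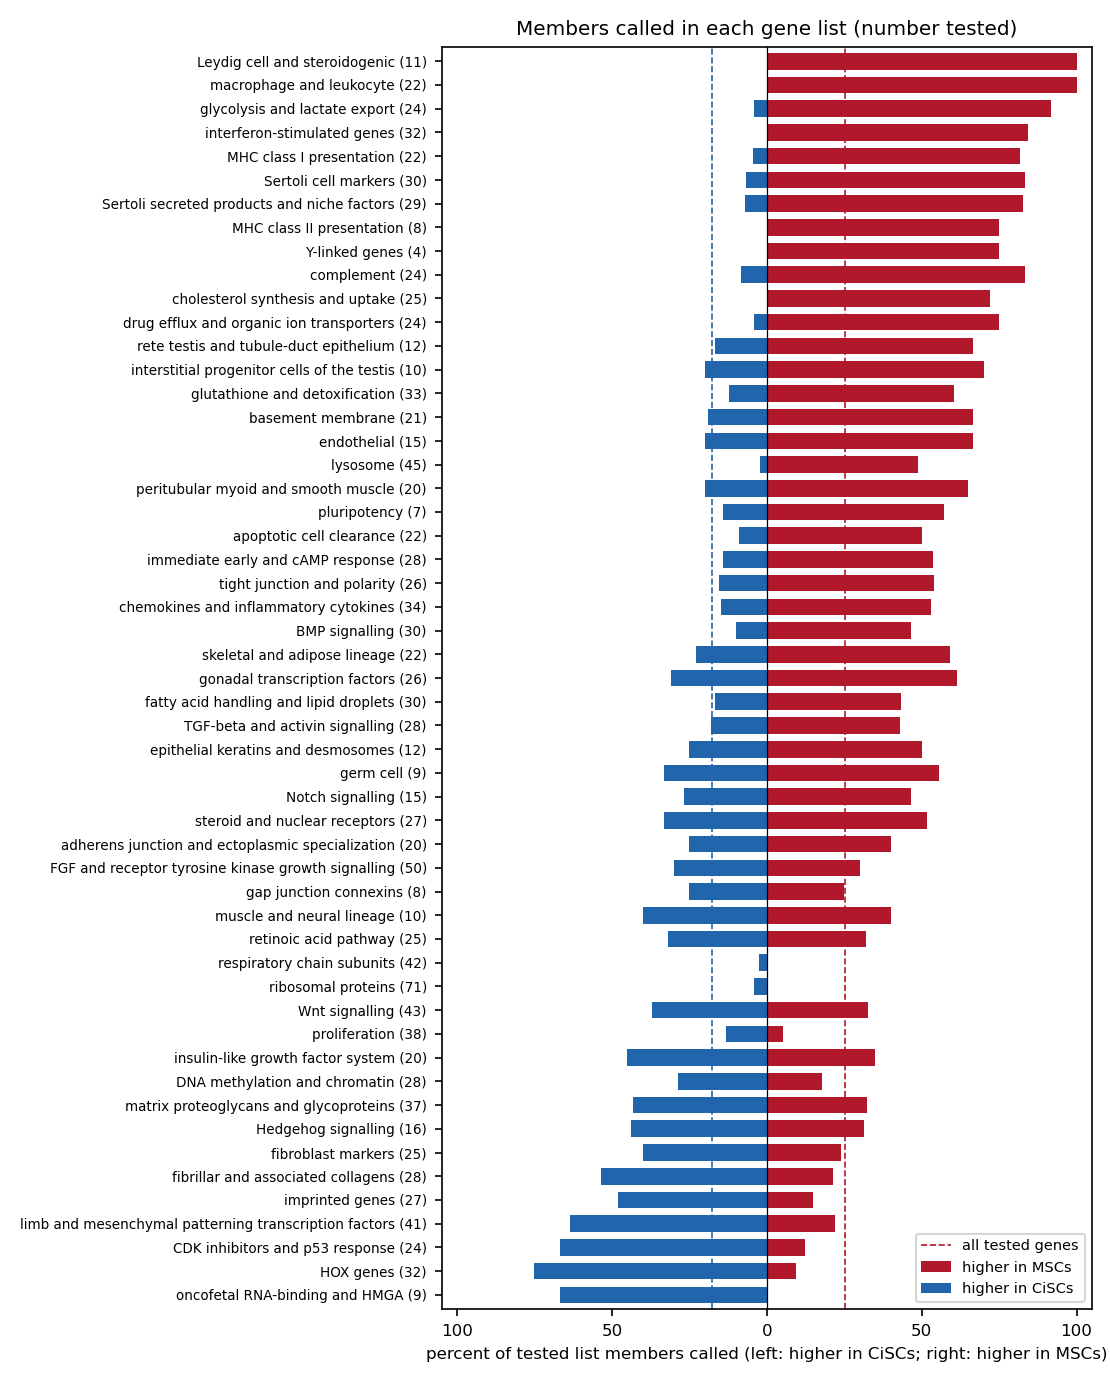
Share of tested members called higher in MSCs (red) and higher in CiSCs (blue) for each gene list, in percent, with the number of tested members. The dashed red and blue lines mark the shares over all 15272 tested genes, 25.1% and 17.7%, and the lists for macrophages and Leydig cells lie farthest on the MSC side while HOX genes and fetal RNA-binding and Hmga genes lie at the other end.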

How the data were processed

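Total RNA of 2 libraries each of CiSCs, MSCs and MEFs was sequenced on a BGISEQ-500, per the labels' protocols. The authors deposited 1 value per gene ID and library under a read count heading, and these were used like expected counts (estimated counts). The submitters' processing notes name HISAT and the mouse build mm9. The counting program, strand and annotation are not given in the sources used here. Many deposited values are not whole numbers (tolerance 1e-09), and a scaling by the authors before deposit cannot be told apart from count estimation. Symbols came from a RefSeq table on GRCm38.p6, which matched 18891 of 20007 IDs, and 972 of the other 1116 had the submitters' own format. Near-identical genes can share reads.

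The counts were rounded, filtered with filterByExpr (minimum count 10), scaled by TMM and fitted with edgeR 4.0.16 in R 4.3.3 (glmQLFit and glmQLFTest). All 6 libraries entered 1 fit with group as the only term and 3 residual degrees of freedom, and the contrast was MSCs minus CiSCs. Genes were called at an adjusted p under 0.05, by the Benjamini-Hochberg method across the 15272 tested. SE and 95% intervals came from the same fit. Fold values are ratios of mean CPM. Where a group had 0 reads it was set at 3 reads over the group, and with 1 to 3 reads the ratio has an exact binomial interval, which covers counting error only. The fitting code was tested on simulated data.

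Members and gene lists were chosen with earlier results of these data known, so the counts over the 53 lists are descriptions. In every list, a gene low in 1 group could be tested only through its level in another group. Genes were named by a rule. It took the 12 largest called changes in each direction among genes of at least 10 CPM, up to 5 called members of each list in each direction with the smallest adjusted p, and a set of Sertoli, Leydig, fibroblast and retinoid genes. Genes too low to test, and Hoxd8, were named after their values were seen. Alternatives covered the libraries, filter, scaling, threshold, replicate block, rounding and DESeq2 1.42.0. Some genes are not reported here.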

Additional observations from a re-analysis of the deposited data

How the results depend on the processing

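Under every alternative run, no gene called with all libraries was called in the opposite direction. Leaving out 1 library of CiSCs or MSCs gave between 3910 and 4205 calls against 6534, and between 1343 and 1533 genes higher in CiSCs against 2697, while 2567 to 2672 were higher in MSCs against 3837. Without MEF library 1 there were 9356 calls with 4237 higher in CiSCs, and without MEF library 2 there were 9369 with 4238. Fitting only the 4 CiSC and MSC libraries gave 9328 calls with 4445 higher in CiSCs. An adjusted p under 0.01 gave 4324 calls with 1577 higher in CiSCs, and a test against a fold of 1.5 gave 4282 with 1481. Other filters gave 5321 to 6352 calls, RLE scaling 6541, unrounded counts 6538 and DESeq2 6525. Upper quartile scaling gave 6703 calls, 53.4% of them higher in MSCs against 58.7%. With the replicate number as a block there were 5814 calls, 3512 higher in MSCs and 2302 in CiSCs. Over 15272 genes, deviations of same-numbered libraries correlated at -0.129 for CiSCs and MSCs, at -0.215 for CiSCs and MEFs and at 0.138 for MSCs and MEFs, so the numbers were not taken as pairs. A block with the CiSC numbers crossed, chosen after seeing the data, gave 6998 calls. With 1 read worth between 0.0468 and 0.0543 CPM, genes such as Fshr, with 8 reads in MSCs, could not be tested. Between 1 and 10 CPM, 22.4% of genes had an interval within 2-fold, against 59.6% between 10 and 100 CPM.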
